A study of Mus musculus with 9 samples.

Results

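Astrocyte genes were followed across 9 Affymetrix Mouse Gene 1.0 ST arrays of mouse glioma lines and neural stem and progenitor cells (NSC). The 35 genes were taken from a written list of genes that are typical of astrocytes, and all 35 were found among the 20690 genes with a symbol in the deposited gene table. This list and the other gene lists below were chosen with earlier results of these data known. Their shares beside those of all genes are therefore descriptions, and no test of a list was made. There were 3 arrays for each of 3 groups. The Erbb2 lines came from brains electroporated with a plasmid for EGFP, a P2A peptide and the mutant receptor Erbb2 V664E, and the Hras lines from brains given EGFP joined to the mutant GTPase Hras G12V. The NSC cultures received reporters without an oncogene, namely a membrane EGFP (NSC 1), an EGFP-tagged histone (NSC 2) and, by its description, the blue reporter alone (NSC 3), although the source label of NSC 3 also speaks of EGFP. All 9 cultures also received the blue reporter TagBFPnls-V5 and the transposase plasmid pBase. Cells were taken from the subventricular zone, grown with EGF and FGF and, per the labels, sorted for high GFP. For NSC 3 the description names a sort for the blue protein instead. NSC 3 came from C57/Bl6 mice with a floxed Dnm2 gene and without Cre, and the other 8 cultures from CD1 mice. The description of Hras line 3 carries another line number, and the title was followed. The first digit of the descriptions, which is not explained, is 1, 2 and 3 in lines 1, 2 and 3 of both oncogenes. In NSC 1, 2 and 3 it is 4, 4 and 5. Tumour lines and NSC share no such digit. Its part in their differences cannot be separated from that of the group, and was not tested. Whether the lines within a group stem from different animals is not stated, so p-values reflect the variation among cultures, which may be partly technical. The animals' age is not given in the sources used here.

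Astrocytes clear glutamate from the extracellular space, turn it into glutamine, buffer ions and water through channels and gap junctions, and supply neighbouring cells with metabolites. Many genes for these tasks are also active in radial glia and in the neural stem cells of the subventricular zone, which share features with astrocytes, so such genes are commonly read in NSC cultures. Some of them, S100b and Car2 among them, are also made by cells of the oligodendrocyte lineage.

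Levels are log2 values as deposited, and differences are differences of such values. The median log2 level over all genes was 6.56 to 6.73 in Erbb2 lines, 6.98 to 7.19 in Hras lines and 6.56 to 6.81 in NSC, so the median difference over all genes was 0.16 for Hras lines against NSC, -0.14 for Erbb2 lines against NSC, 0.29 for Hras against Erbb2 lines, and 0.01 for the tumour mean (the average of the Erbb2 and Hras group means) against NSC. A level below 5.31, the lower quartile of all values, is called dim here, since such levels may be background. Markers of other cell types gave the following mean log2 levels. On all arrays the list mean of the 8 microglial markers stayed between 5.16 and 5.84. It lay between 5.21 and 6.47 for the 7 endothelial markers, and between 5.22 and 5.98 for the 8 markers of pericytes and fibroblasts. The endothelial marker Flt1 by itself ranged from 5.87 to 7.36 in Erbb2 lines, from 7.53 to 9.9 in Hras lines and from 6.09 to 8.56 in NSC. The 7 ependymal markers lay at 5.35 to 5.41 in Erbb2 lines, 5.39 to 5.83 in Hras lines and 5.59 to 6.14 in NSC. The 10 markers of the oligodendrocyte lineage ranged from 7.62 to 9.73 in Erbb2 lines, from 7.57 to 9.59 in Hras lines and from 7.54 to 7.73 in NSC. The 9 neuronal markers ranged from 6.35 to 8.08, 7.29 to 7.86 and 6.71 to 6.88, the 8 markers of neural stem cells and radial glia from 8.87 to 9.07, 8.89 to 9.71 and 9.72 to 10.03, and the 8 genes of dividing cells from 9.42 to 9.65, 10.3 to 10.46 and 8.52 to 9.75, each in the order Erbb2, Hras, NSC. The part of these cell types in the differences below was not tested. In RNA pooled from many sorted cells, fewer cells of a type cannot be told apart from less RNA per cell.

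Most of the astrocyte genes had a lower mean in the tumour lines than in NSC, but few differences passed the test. For the tumour mean against NSC, 27 of 35 had a negative difference, with a median of -0.36, where 48.6% of all genes had a negative difference. The enzymes Car2 and Plcd4 fell, and 0 genes of the list rose (limma, adjusted p under 0.05 over all genes). Over all genes 0.353% were called in this comparison, 0.0967% as lower and 0.256% as higher. At an unadjusted p under 0.05, 14 members were lower and 3 higher, against 2.62% and 7.42% of all genes. For 8 members, Slc1a3, Slc25a18, Mlc1, Mt3, Aldh1l1, Car2, Aldh1a1 and Plcd4, all 6 tumour lines lay below all 3 NSC arrays, which is 22.9% of the list beside 1.28% of all genes. For 0 members all 6 lines lay above, beside 2.87% of all genes. The median moved to -0.77 without NSC 1, to -0.12 without NSC 2, to -0.18 without Hras 3 and to -0.64 without NSC 3.

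**Figure D1:**
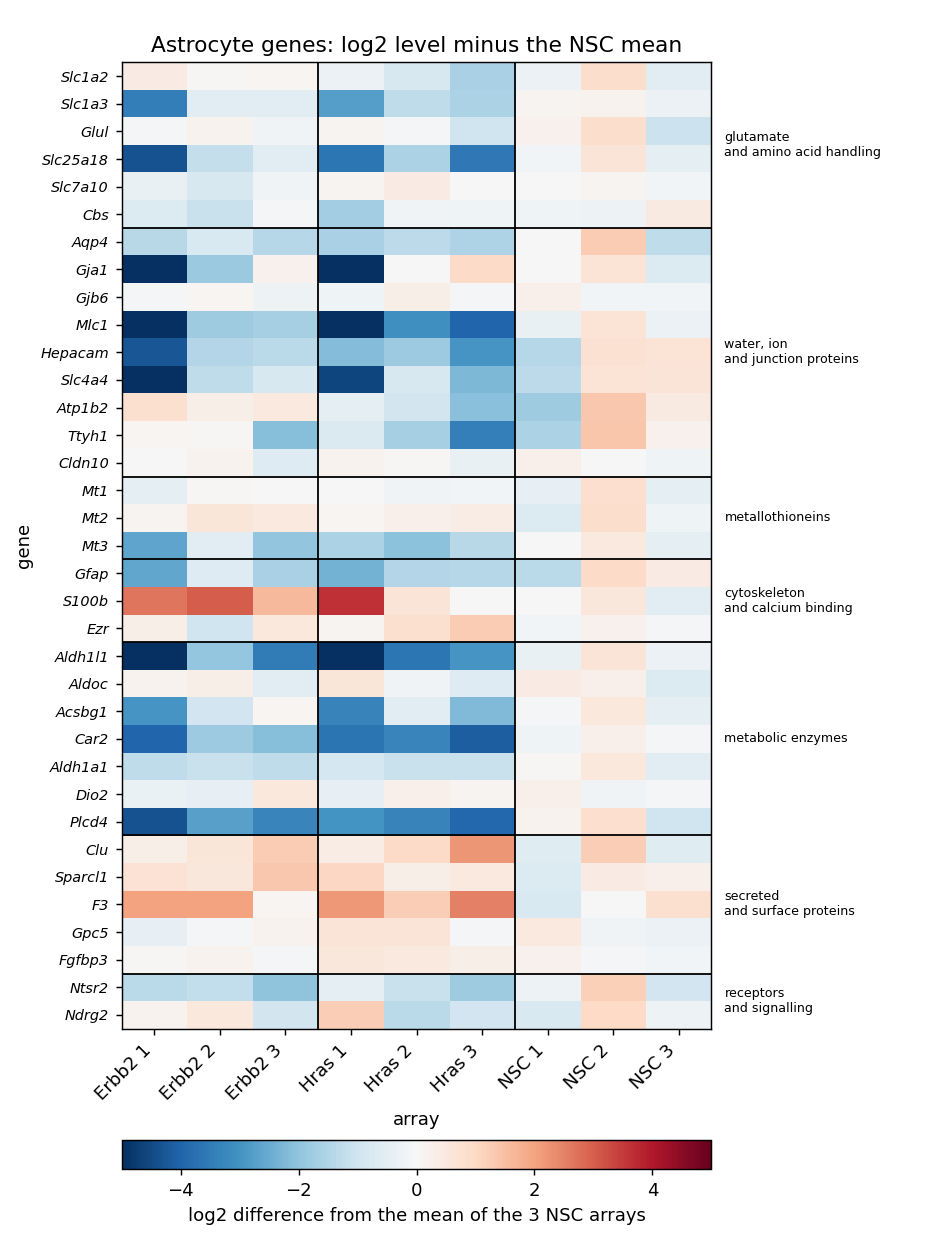
Log2 level of each of 35 astrocyte genes (rows, ordered by role) on each of 9 arrays (columns), minus the mean of the 3 NSC arrays; blue is lower and red higher than that mean, and colours are at their limit beyond 5 units. Mlc1, Aldh1l1, Car2 and Plcd4 are blue in all 6 tumour lines, Gja1 and Slc4a4 are darkest in Erbb2 1 and Hras 1, and S100b and F3 are red in most tumour lines.

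Each oncogene was also set against NSC by itself, with the same 3 NSC arrays in both comparisons. In Hras lines 25 of 35 members had a negative difference (median -0.91), beside 31.5% of all genes, and 12 members lay wholly below NSC, 34.3% of the list beside 2.58% of all genes, while 2 lay wholly above (5.71% beside 11.9%). In limma's test 0 members were called, as were 0% of all genes, while without Erbb2 1, which enters through the shared variance, Car2 was called (adjusted p = 0.0129). At an unadjusted p under 0.05, 12 members were lower and 2 higher, beside 1.52% and 10.5% of all genes. In Erbb2 lines 27 of 35 were negative (median -0.45), beside 63.3% of all genes. Of the members, 10 lay wholly below NSC (28.6% beside 12.6%) and 2 wholly above (5.71% beside 5.09%). There, 0 members were called in limma's test, beside 0.00967% of all genes (0.00483% lower and 0.00483% higher), and 9 were lower and 3 higher at an unadjusted p under 0.05, beside 4.84% and 4.38%. Without NSC 2 the medians were -0.49 for Hras and -0.19 for Erbb2 lines.

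By limma's smallest unadjusted p, the members lowest in Hras lines were Car2 (-3.69, SE 0.50, adjusted p = 0.071) and Plcd4 (-3.41, SE 0.53, adjusted p = 0.0773), described below. In Erbb2 lines they were Plcd4 (-3.45, SE 0.53, adjusted p = 0.0743) and Car2 (-2.63, SE 0.50, adjusted p = 0.134). For Aldh1l1 the difference was -4.13 (SE 1.00, limma adjusted p = 0.162) in Hras and -3.79 (SE 1.00, adjusted p = 0.275) in Erbb2 lines, and for Mlc1 it was -4.14 (SE 1.00, adjusted p = 0.162) and -3.02 (SE 1.00, adjusted p = 0.412). Without Erbb2 1 the difference of Mlc1 in Erbb2 lines was -1.73. The highest members by the same order were F3 in Hras lines (1.96, SE 0.60, limma adjusted p = 0.244) and S100b in Erbb2 lines (2.46, SE 0.84, adjusted p = 0.427). None of these passed the threshold, although the groups did not overlap for any of them.

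**Figure D2:**
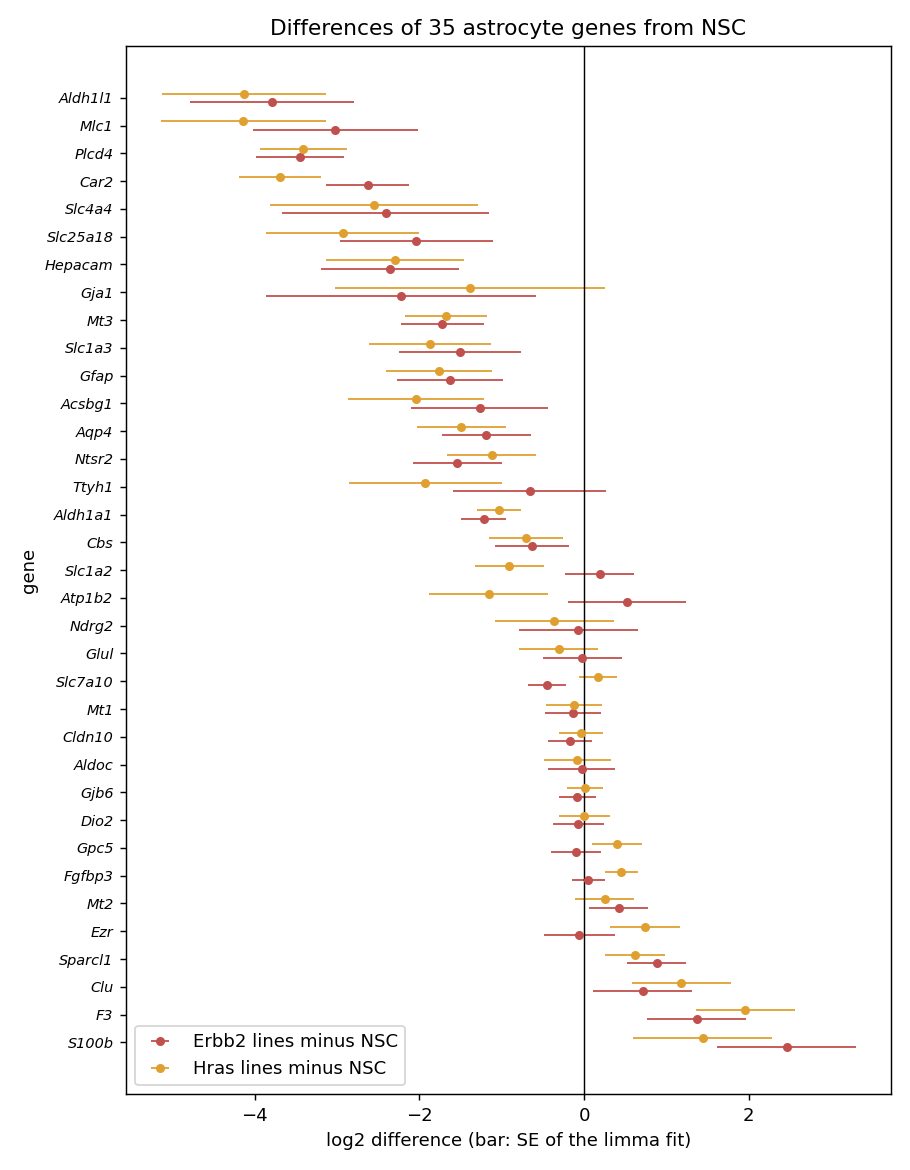
Log2 difference from NSC of each of 35 astrocyte genes (rows, ordered by the mean difference of both groups) in Hras lines and in Erbb2 lines; points are differences and bars are standard errors of the limma fit. The genes run from Aldh1l1, at -4.13 and -3.79, to S100b, at 1.44 and 2.46, and both groups' points share the NSC arrays.

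Metabolic enzymes held both called members. Car2, a cytosolic carbonic anhydrase, had log2 levels of 7.2, 9.32 and 9.02 in Erbb2 lines 1, 2 and 3, of 7.5, 7.84 and 7.03 in Hras lines 1, 2 and 3, and of 10.93, 11.42 and 11.09 in NSC 1, 2 and 3. Every NSC array lay above every tumour line, by at least the gap between 10.93 and 9.32. NSC averaged 11.15 ± 0.25 (SD, n = 3) and tumour lines 7.99 ± 0.96 (SD, n = 6). The mean difference was -3.16 (SE 0.44, limma adjusted p = 0.0371). Plcd4, a phospholipase C of the delta class, had 4.97, 6.58 and 6.02 in Erbb2 lines, 6.34, 5.98 and 5.4 in Hras lines, and 9.48, 10.16 and 8.3 in NSC. Its groups did not overlap either, and its level in Erbb2 1 was dim. NSC averaged 9.31 ± 0.94 (SD, n = 3) and tumour lines 5.88 ± 0.60 (SD, n = 6). The mean difference was -3.43 (SE 0.46, limma adjusted p = 0.0357). Both calls sat close to the threshold. After quantile normalization the limma adjusted p was 0.0528 for Car2 and 0.0535 for Plcd4, and tested among all probe sets it was 0.0685 and 0.0649. With an NSC array left out, Car2 had an adjusted p of 0.0777 (NSC 1), 0.207 (NSC 2) or 0.0837 (NSC 3), and with an Hras array left out, of 0.0811 (Hras 1), 0.092 (Hras 2) or 0.0548 (Hras 3). Plcd4 had 0.0783 (NSC 1 left out), 0.172 (NSC 2), 0.059 (Erbb2 1), 0.0653 (Hras 1), 0.0963 (Hras 2) or 0.0548 (Hras 3). Without Erbb2 1 and Hras 1 together it was 0.0579 for Car2 and 0.114 for Plcd4. The differences themselves stayed between -3.36 and -2.83 for Car2 and between -3.94 and -3.01 for Plcd4 over the 17 alternatives.

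The folate enzyme Aldh1l1, a widely used astrocyte marker, had the largest negative difference of the list. Its log2 level was 4.96, 8.96 and 7.4 in Erbb2 lines, 5.08, 7.29 and 7.94 in Hras lines, and 10.53, 11.55 and 10.61 in NSC. The tumour lines lay below NSC and spread over 4 log2 units, with Erbb2 1 and Hras 1 dim. The mean difference was -3.96 (SE 0.86, limma adjusted p = 0.135), not past the threshold. Aldh1a1, which makes retinoic acid, had 5.05 to 5.21 in Erbb2 lines, 5.21 to 5.47 in Hras lines and 6.37, 6.85 and 5.76 in NSC 1, 2 and 3, a difference of -1.13 (SE 0.24, limma adjusted p = 0.125). Most tumour values were dim, 5 of 9 arrays in all. Acsbg1, an acyl-CoA synthetase, had 7.83, 9.82 and 10.86 in Erbb2 lines, 7.42, 10.2 and 8.57 in Hras lines, and 10.69, 11.3 and 10.33 in NSC, so that Erbb2 3 reached the NSC range. The glycolytic aldolase Aldoc overlapped in all groups, at 11.19 to 12.02, 11.09 to 12.33 and 11.05 to 12.15 in Erbb2 lines, Hras lines and NSC. Dio2, which activates thyroid hormone, overlapped as well, at 5.18 to 6.13, 5.17 to 5.85 and 5.43 to 5.83. All 7 enzymes had a negative difference of the tumour mean from NSC, which for Aldoc and Dio2 was smaller than the spread within each group.

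Among the genes that handle glutamate and amino acids, the transporters and the mitochondrial carrier differed in pattern. Slc1a3, the glutamate transporter of radial glia and astrocytes, had 8.58, 11.5 and 11.54 in Erbb2 lines, 9.3, 10.78 and 10.47 in Hras lines, and 12.18, 12.21 and 11.76 in NSC. All 6 lines lay below NSC, with Erbb2 2 and 3 closest to NSC 3. Slc25a18, a mitochondrial glutamate carrier, had 6.64, 9.77 and 10.42 in Erbb2 lines, 7.36, 9.41 and 7.4 in Hras lines, and 10.84, 11.62 and 10.49 in NSC. The lines again lay below NSC, Erbb2 3 closely so. Slc1a2, the main glutamate transporter of mature astrocytes, had 8.51, 8.15 and 8.2 in Erbb2 lines, 7.78, 7.28 and 6.47 in Hras lines, and 7.79, 8.95 and 7.54 in NSC. Here the Erbb2 lines fell within the NSC range and 2 of the 3 Hras lines lay below it. Glul, glutamine synthetase, overlapped in all groups (8.99 to 10.15 in tumour lines, 8.9 to 10.84 in NSC). Cbs, which makes cystathionine from homocysteine, had 7.15 to 8.16 in Erbb2 lines, 6.54 to 8.08 in Hras lines and 8 to 8.72 in NSC. Slc7a10, a transporter of small neutral amino acids, lay between 5.45 and 6.66 on all arrays.

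Of the 9 genes for water, ion and junction proteins, all had a negative mean difference and 0 were called in limma's test (adjusted p of 0.164 or more), while 4 were lower at an unadjusted p under 0.05, beside 2.62% of all genes. Among the 9, Gjb6 and Cldn10 were dim on every array, so the sign of their differences cannot be read. Mlc1, a membrane protein of astrocyte endfeet, had 5.42, 9.23 and 9.35 in Erbb2 lines, 5.65, 7.96 and 7.05 in Hras lines, and 10.63, 11.71 and 10.73 in NSC. All lines lay below NSC, and the difference was -3.58 (SE 0.87, limma adjusted p = 0.164). Hepacam, the adhesion molecule that binds Mlc1, had 6.35, 9.15 and 9.25 in Erbb2 lines, 8.45, 8.81 and 7.68 in Hras lines, and 9.18, 11.37 and 11.29 in NSC, where NSC 1 lay within the range of the Erbb2 lines. Gja1, the connexin of astrocyte gap junctions, varied most among the tumour lines, over 6.08 log2 units. It had 5.14, 8.32 and 10.4 in Erbb2 lines, 5.04, 10.18 and 11.12 in Hras lines, and 10.17, 10.86 and 9.48 in NSC. Erbb2 1 and Hras 1 were dim, Erbb2 2 was intermediate, and the other lines were in or above the NSC range. The bicarbonate cotransporter Slc4a4 had 4.96, 8.86 and 9.33 in Erbb2 lines, 5.53, 9.31 and 7.87 in Hras lines, and 8.8, 10.79 and 10.78 in NSC. As for Gja1, Erbb2 1 and Hras 1 were the lowest arrays.

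Aqp4, the water channel of endfeet, was dim on 6 of 9 arrays, with 6.57, 7.82 and 5.27 in NSC and 4.92 to 5.8 in tumour lines. Ttyh1, a channel-like membrane protein, had 10.26, 10.22 and 8.03 in Erbb2 lines, 9.43, 8.51 and 6.77 in Hras lines, and 8.58, 11.54 and 10.38 in NSC. Atp1b2, the beta subunit of the glial sodium pump, had 10.99, 10.46 and 10.66 in Erbb2 lines, 9.71, 9.28 and 8.08 in Hras lines, and 8.4, 11.52 and 10.63 in NSC. NSC 1 lay below 3 of the 6 tumour lines for Ttyh1 and below all but Hras 3 for Atp1b2. Gjb6, a connexin of mature astrocytes, and the claudin Cldn10 were dim on all 9 arrays, at 4.53 to 5.08 and 4.26 to 5.16, so no difference of theirs can be read.

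**Figure D3:**
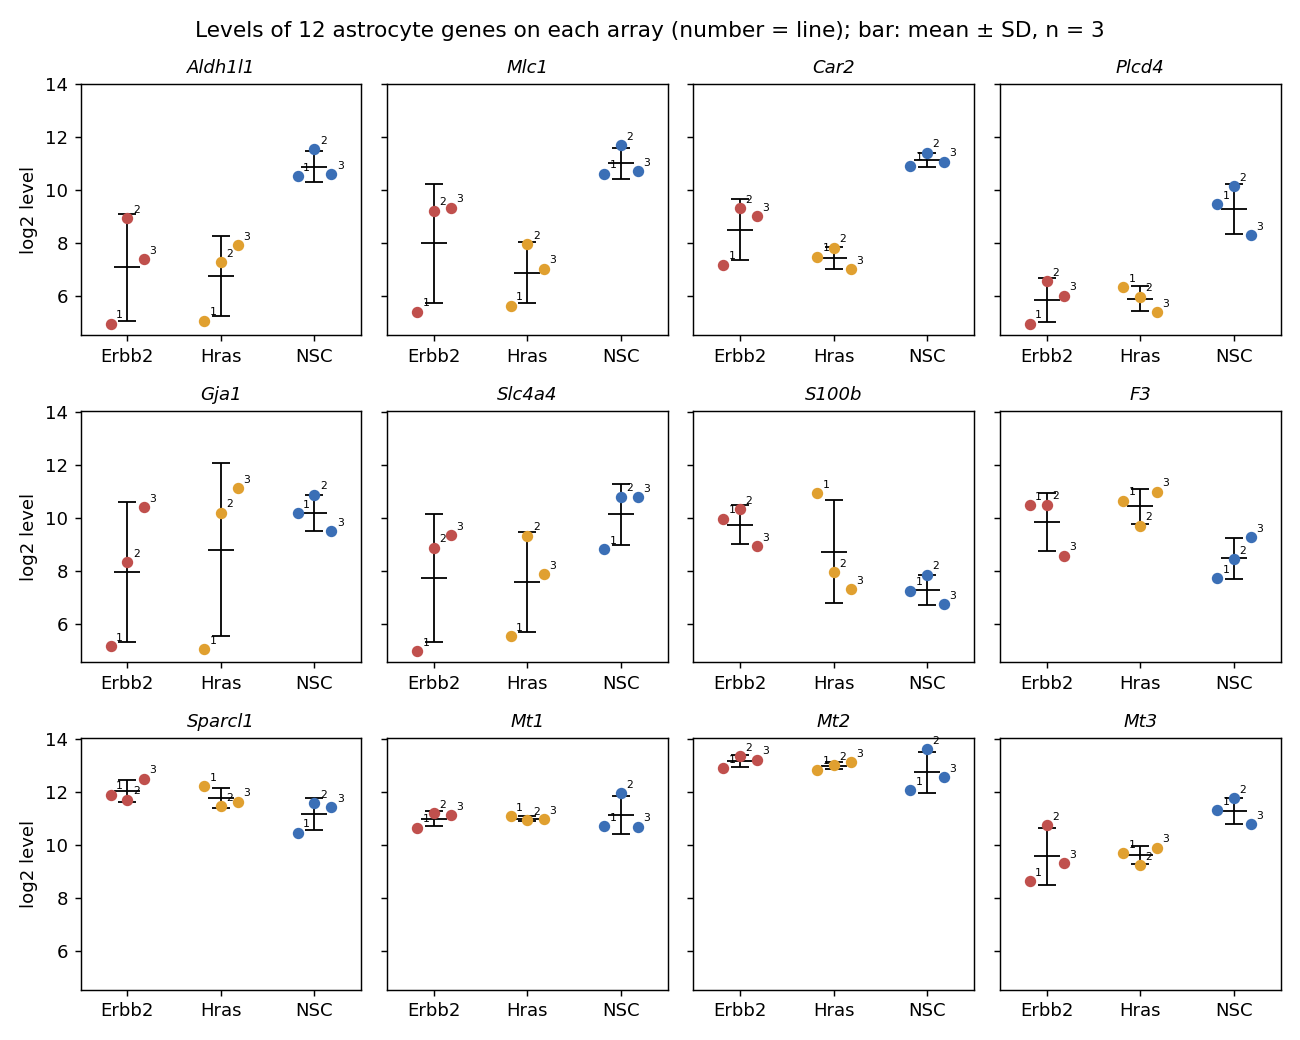
Log2 level of 12 astrocyte genes on each array, by group; points are arrays numbered by line, and the horizontal mark and bar are the mean ± SD (n = 3). Car2 and Plcd4 lie apart from NSC in all 6 lines, Gja1 and Slc4a4 are lowest in Erbb2 1 and Hras 1, S100b is highest in Hras 1 at 10.92, and Mt3 but not Mt1 or Mt2 lies below NSC in every line.

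The metallothioneins Mt1, Mt2 and Mt3 bind zinc and copper. Mt1 and Mt2 are induced by metals and glucocorticoids, while Mt3 is the brain form. Mt1 had log2 levels of 10.65, 11.18 and 11.11 in Erbb2 lines, 11.08, 10.93 and 10.97 in Hras lines, and 10.7, 11.95 and 10.68 in NSC. Mt2 had 12.89, 13.35 and 13.21, then 12.84, 13 and 13.12, then 12.07, 13.6 and 12.54 in the same order. For both, the tumour lines varied by about 0.5 units (ranges 0.53 and 0.51) and lay almost wholly inside the NSC range. Mt3 had 8.63, 10.74 and 9.3 in Erbb2 lines, 9.68, 9.22 and 9.89 in Hras lines, and 11.3, 11.75 and 10.78 in NSC. All 6 lines lay below NSC, Erbb2 2 by little, and the difference was -1.70 (SE 0.43, limma adjusted p = 0.182), beside -0.13 (SE 0.30, adjusted p = 0.924) for Mt1 and 0.33 (SE 0.31, adjusted p = 0.785) for Mt2. The values of Mt1 and Mt2 are given because they neighbour Mt3, a choice made after they were seen, and the contrast of Mt3 with them was not itself tested.

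The windows of 250 bases before the RefSeq start (GRCm38.p6) are printed for the 3 metallothionein genes, which lie side by side on chromosome 8. The windows differ in their number of matches to a pattern taken from a known regulatory element, the metal response element. The pattern searched on both strands was TGCNCNC, where N is any base, and its matches are in capitals. It is looser than the core of the element, which has A or G at the first N. Some matches have T there and are not that core, among them the match of Mt3, read on the opposite strand.
Mt1, chr8:94178839-94179088, + strand: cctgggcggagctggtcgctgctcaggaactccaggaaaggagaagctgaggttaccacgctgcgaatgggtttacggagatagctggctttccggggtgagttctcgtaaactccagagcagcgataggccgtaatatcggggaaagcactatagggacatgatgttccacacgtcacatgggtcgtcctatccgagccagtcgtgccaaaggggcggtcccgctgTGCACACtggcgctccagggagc
Mt2, chr8:94172368-94172617, + strand: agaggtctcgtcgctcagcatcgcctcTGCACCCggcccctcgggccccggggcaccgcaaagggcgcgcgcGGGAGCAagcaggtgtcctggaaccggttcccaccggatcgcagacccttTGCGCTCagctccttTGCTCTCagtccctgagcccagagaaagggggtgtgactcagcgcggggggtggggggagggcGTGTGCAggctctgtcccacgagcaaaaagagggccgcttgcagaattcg
Mt3, chr8:94152357-94152606, + strand: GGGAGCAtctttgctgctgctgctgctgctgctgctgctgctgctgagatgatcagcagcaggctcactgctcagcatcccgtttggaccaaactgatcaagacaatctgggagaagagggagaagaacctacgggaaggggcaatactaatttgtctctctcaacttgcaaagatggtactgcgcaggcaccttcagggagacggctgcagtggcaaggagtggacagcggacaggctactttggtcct
The Mt2 window held 5 matches, and the Mt1 and Mt3 windows held 1 each. A match was present in 44.4% of 32841 promoter windows of the same length, and 5 or more in 0.3%. The start used for Mt1 lies inside the annotated gene, so another start would give another window and possibly another count. The counts therefore compare these windows and do not show that the genes differ in the element. A match describes letters, not a site that is in use.

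S100b had the largest positive difference of the list. S100b, a calcium-binding protein of astrocytes and oligodendrocyte precursors, had 9.96, 10.31 and 8.91 in Erbb2 lines, 10.92, 7.93 and 7.29 in Hras lines, and 7.24, 7.85 and 6.73 in NSC. All Erbb2 lines and Hras 1 stood at least 1 unit above the highest NSC array, Hras 2 lay just above it, and Hras 3 lay inside the NSC range. The mean difference was 1.95 (SE 0.72, limma adjusted p = 0.395), and 1.40 without Hras 1. Beside it, the mean log2 level of the 10 oligodendrocyte lineage markers was 9.73, 9.32 and 7.62 in Erbb2 lines 1, 2 and 3, 9.59, 8.7 and 7.57 in Hras lines 1, 2 and 3, and 7.54 to 7.73 in NSC. Each of these markers passed the dim limit on at least 1 array, which by itself does not show that it was expressed. Their part in the level of S100b was not tested. Gfap, the intermediate filament of astrocytes, had 5.41, 7.33 and 6.36 in Erbb2 lines, 5.61, 6.51 and 6.57 in Hras lines, and 6.64, 8.94 and 8.4 in NSC. Its tumour lines lay below NSC 2 and 3, and Erbb2 2 lay above NSC 1. Ezr, ezrin, which ties membrane to actin, had 7.39 to 8.92 in Erbb2 lines, 8.52 to 9.68 in Hras lines and 8.27 to 8.6 in NSC.

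All 5 secreted and surface proteins had a positive mean difference, although that of Gpc5 was smaller than its standard error and was negative in Erbb2 lines alone. F3, tissue factor, had 10.46, 10.48 and 8.56 in Erbb2 lines, 10.63, 9.69 and 10.97 in Hras lines, and 7.71, 8.43 and 9.25 in NSC. All lines but Erbb2 3 lay above NSC, with a difference of 1.67 (SE 0.52, limma adjusted p = 0.279). Sparcl1, a matrix protein that promotes synapses, had 11.89, 11.7 and 12.5 in Erbb2 lines, 12.2, 11.46 and 11.63 in Hras lines, and 10.46, 11.57 and 11.42 in NSC, where only Hras 2 was within the NSC range. Its difference was 0.75 (SE 0.31, limma adjusted p = 0.455), and 0.40 without NSC 1. Clu, the chaperone clusterin, had 8.3, 8.6 and 9.27 in Erbb2 lines, 8.38, 8.96 and 10.22 in Hras lines, and 7.4, 9.24 and 7.4 in NSC. Clu had a difference of 0.94 (SE 0.52, limma adjusted p = 0.595), and of 1.56 without NSC 2. The glypican Gpc5 (5.3 to 6.37 on all arrays) and Fgfbp3, which binds fibroblast growth factors (5.78 to 6.5), had low levels that differed little between arrays.

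The remaining members were Ntsr2, a neurotensin receptor, and Ndrg2, a cytosolic protein enriched in astrocytes. Ntsr2 had 6.73, 6.84 and 6.08 in Erbb2 lines, 7.62, 6.97 and 6.31 in Hras lines, and 7.83, 9.29 and 7.15 in NSC. Its tumour lines lay below NSC except for Hras 1. Ndrg2 overlapped in all groups, at 9.53 to 11, 9.11 to 11.68 and 9.71 to 11.47.

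Promoters are shown for the members with the largest negative differences, Aldh1l1 and Mlc1, and for S100b, which had the largest positive difference. Nuclear factor I is a family of transcription factors known for driving astrocyte genes, and its site was searched on both strands as the full palindromic site and as the single arm TTGGC, which the full site contains. Capitals mark the arm.
Aldh1l1, chr6:90550543-90550792, + strand: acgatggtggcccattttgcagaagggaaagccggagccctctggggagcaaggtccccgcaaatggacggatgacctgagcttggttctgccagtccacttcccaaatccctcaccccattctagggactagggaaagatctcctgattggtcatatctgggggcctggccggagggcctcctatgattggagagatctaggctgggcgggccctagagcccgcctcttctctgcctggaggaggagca
Mlc1, chr15:88978554-88978803, - strand: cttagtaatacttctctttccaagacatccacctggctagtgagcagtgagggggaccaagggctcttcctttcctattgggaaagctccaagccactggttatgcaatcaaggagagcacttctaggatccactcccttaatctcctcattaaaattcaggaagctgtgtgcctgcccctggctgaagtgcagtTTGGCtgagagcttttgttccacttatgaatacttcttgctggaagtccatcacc
S100b, chr10:76253586-76253835, + strand: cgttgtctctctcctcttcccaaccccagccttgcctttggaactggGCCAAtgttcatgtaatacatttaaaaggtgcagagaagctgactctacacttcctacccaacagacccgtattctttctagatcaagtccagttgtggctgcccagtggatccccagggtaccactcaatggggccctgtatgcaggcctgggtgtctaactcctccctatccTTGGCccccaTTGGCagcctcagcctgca
The starts used for Mlc1 and Aldh1l1 also lie inside the annotated genes, so other starts would give other windows. The S100b window held 3 such arms, the Mlc1 window 1 and the Aldh1l1 window 0. The table held 37 windows for 30 of the 35 members. An arm was present in 18 of these 37 (48.6%) and in 41.5% of all windows, and the full site in 0 of 37 and 0.0365% of all. The STAT site TTCNNNGAA was present in 4 of 37 (10.8%) and in 7.02% of all windows. The loose metal response pattern was present in 20 of 37 (54.1%) against the 44.4% given above. These shares describe the windows, and nothing was tested on them.

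The lines of both oncogenes were also compared with each other. In limma's test 0 members were called between Hras and Erbb2 lines, as were 0% of all genes, and 19 of 35 members had a negative difference (median -0.08), beside 21.2% of all genes (median 0.29). At an unadjusted p under 0.05, 2 members were lower in Hras lines, beside 0.72% of all genes, and 1 was higher, beside 12% of all genes. Slc1a2 was lower in each Hras line than in each Erbb2 line, by -1.11 (SE 0.42, limma adjusted p = 0.391), and Atp1b2 likewise by -1.68 (SE 0.72, limma adjusted p = 0.391). The amino acid transporter Slc7a10 (0.61, SE 0.23, adjusted p = 0.391) and Fgfbp3 (0.40, SE 0.20, adjusted p = 0.396) were higher in each Hras line. Both depended on the scaling of the arrays: after quantile normalization and with centred arrays, Slc7a10 differed by 0.14 and 0.19, and the sign of Fgfbp3 turned, to -0.08 and -0.01. Members whose groups lay apart numbered 2 lower and 2 higher, 5.71% each, beside 2.05% and 25.6% of all genes. The median was -0.34 without Erbb2 1 and 0.13 without Erbb2 2.

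By line, the count of members below the NSC range varied less than the count of members more than 1 log2 unit below it. Below all 3 NSC arrays lay 20, 16 and 16 of 35 members in Erbb2 lines 1, 2 and 3, beside 31.6%, 33.9% and 33.3% of all genes, and 17, 16 and 19 in Hras lines 1, 2 and 3, beside 20%, 7.22% and 15.1% of all genes. As shares of the list these were 57.1%, 45.7% and 45.7% for Erbb2 lines and 48.6%, 45.7% and 54.3% for Hras lines. Above all NSC arrays lay 4, 3 and 5 members in Erbb2 lines (19.9%, 13% and 20.2% of all genes) and 7, 8 and 6 in Hras lines (27.2%, 47.6% and 24.4%). These counts depended on scaling and on the NSC arrays used. With centred arrays they were 7 in Erbb2 2 and 4, 0 and 3 in Hras lines 1, 2 and 3, and after quantile normalization 7 in Erbb2 2 and 2 in Hras 2. Without NSC 2 they were 9, 8 and 11 in Erbb2 lines and 12, 13 and 9 in Hras lines, and without NSC 1 Erbb2 2 had 8. More than 1 log2 unit below the lowest NSC array lay 12, 5 and 6 members in Erbb2 lines 1, 2 and 3 and 12, 6 and 10 in Hras lines 1, 2 and 3. The share of all genes beyond this margin was not counted, so these counts have no background beside them. Dim members numbered 10 in Erbb2 1 and 6 in Hras 1, 4 in each of the other lines, and 2 to 3 in NSC. By the definition of the limit, 25% of the values of all genes were dim.

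**Figure D4:**
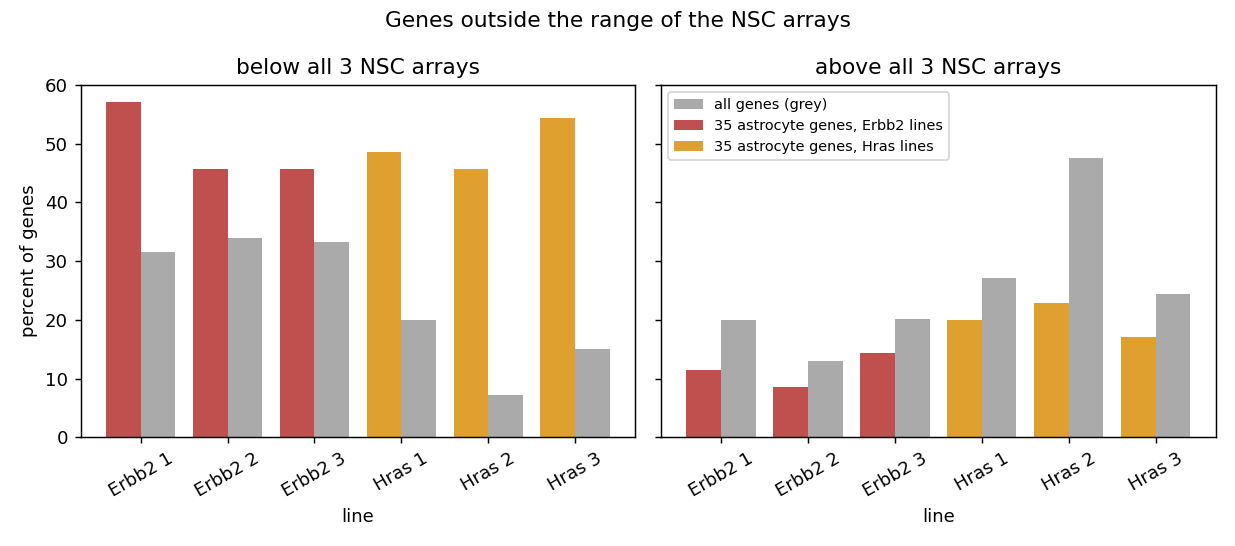
Percent of genes below (left) or above (right) all 3 NSC arrays in each tumour line; coloured bars are the 35 astrocyte genes and grey bars all 20690 genes. The share of astrocyte genes below NSC is 45.7% to 57.1% in every line, against 7.22% to 33.9% of all genes.

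Erbb2 1 and Hras 1 carried the lowest levels of several members. In 10 of 35 members both lay below the other 4 tumour lines, against 4.6% of all genes, and in 0 members both lay above them, against 4.36%. The 10 were Slc1a3, Slc25a18, Gja1, Mlc1, Slc4a4, Gfap, Aldh1l1, Acsbg1, Mt2 and Clu, a pattern noticed after the values were seen. The descriptions of Erbb2 1 and Hras 1 both open with 1, a number of unstated meaning, and its part in the pattern was not tested. On these arrays the oligodendrocyte lineage markers had mean levels of 9.73 and 9.59, with Sox10, a transcription factor of that lineage, at 11.56 and 10.59. Erbb2 2 had similar values for these markers (list mean 9.32, Sox10 10.6), while its 35 astrocyte genes had a mean of 8.63, beside 7.65 in Erbb2 1 and 7.92 in Hras 1. Among the markers of that list with the highest mean levels, not all set Erbb2 1 and Hras 1 apart from NSC. On these 2 arrays Olig1 was 11.72 and 12.07, beside 11.45 to 12.24 in NSC. Olig2 was 11.05 and 10.9, beside 10.45 to 11.22, and Cnp was 10.67 and 10.39, beside 9.21 to 10.25. Sox10 was chosen after its values were seen, and the part of this lineage in the astrocyte levels was not tested. Without Erbb2 1 and Hras 1 the median member difference from NSC was -0.56 for the mean of both tumour groups. The NSC arrays also differed among themselves. NSC 2 had the highest level of all arrays in 20 of 35 members, where it was the highest for 4.36% of all genes. NSC 1 was the highest array for 1 member and for 26.2% of all genes. In the alternative with array weights NSC 1 had the lowest weight, 0.288, beside 0.762 to 1.669 for the other arrays.

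Of 38 further astrocyte genes outside the list, 32 had a negative difference between the mean of both tumour groups and NSC (median -0.54), 4 fell and 0 rose in limma's test, and 9 lay wholly below NSC. Over all genes 0.0967% were called lower, 0.256% called higher and 1.28% wholly below. The 4 were Rfx4, Grm3, Fgfr3 and Slc6a11. Fgfr3, a fibroblast growth factor receptor of astrocytes and their precursors, had 6.28 to 7.06 in Erbb2 lines, 6.59 to 7.29 in Hras lines and 8.56, 9.59 and 9.73 in NSC, a difference of -2.51 (SE 0.31, limma adjusted p = 0.0246). All 6 lines lay more than 1 unit below NSC. Slc6a11, the GABA transporter of astrocytes, had 6.02, 9.1 and 6.22 in Erbb2 lines, 6.06, 7.3 and 6.25 in Hras lines, and 10.79, 11.94 and 10.68 in NSC. Its difference was -4.32 (SE 0.67, limma adjusted p = 0.0456), with Erbb2 2 nearest to NSC. Rfx4 differed by -4.56 (SE 0.51) and Grm3 by -3.88 (SE 0.47), each with a limma adjusted p of 0.0246. In Hras lines alone 27 of 38 were negative (median -0.68) and in Erbb2 lines alone 32 of 38 (median -0.90), with 0 called in either, and 11 lower in each at an unadjusted p under 0.05, beside 1 and 0 higher. At that threshold 1.52% of all genes were lower and 10.5% higher in Hras lines, and 4.84% lower and 4.38% higher in Erbb2 lines. Over the 17 alternatives Rfx4 was called in 12, Fgfr3 in 11, Grm3 in 10 and Slc6a11 in 4. All 4 lost the call without Erbb2 1, without Hras 1, without both, without NSC 2 and without NSC 3. Without Hras 2, Rfx4 kept the call and the other 3 lost it. Grm3 and Slc6a11 also lost it without NSC 1, and Slc6a11 without Erbb2 3 or Hras 3. Slc6a11 further lost it with all arrays kept, after quantile normalization (adjusted p = 0.0651), with centred arrays (0.0658), with array weights (0.0621) and among all probe sets (0.0808). The highest adjusted p was 0.111, 0.148, 0.144 and 0.214 in the order Rfx4, Fgfr3, Grm3 and Slc6a11, each without NSC 2, and their differences stayed negative throughout.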

How the data were processed

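RNA of 9 cultures was read on Affymetrix Mouse Gene 1.0 ST arrays. The authors deposited a table of log2 values for 20715 rows and a table of linear intensity values for 35511 probe sets plus 1 empty row, without gene names. How the arrays were background-corrected, normalized and summarised is not stated by the labels or headers. Rows named by a bare number (25) were left out. The log2 value equalled the log2 of a probe set's intensity within 1e-04 on all arrays for 20171 of the 20690 genes and for 33 of the 35 members. Precision is limited by 3 arrays a group.

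All 9 arrays entered a fit of group means with limma 3.58.1 in R 4.3.3 (lmFit and eBayes, 6 residual and 3.12 prior degrees of freedom). Calls were two-sided, at 0.05 after Benjamini-Hochberg adjustment across all genes. The fit was tested on simulated data with large changes. By rule, differences with tests were open to members called and, per comparison, to the 6 lower and 4 higher members with the smallest unadjusted p, further astrocyte genes to up to 4 called, and markers of other cells to those with the highest level. Mt1, Mt2 and Sox10 fall outside it and were chosen after their values were seen. Members and lists were chosen with earlier results of these data known. Alternatives were quantile normalization, centred arrays, no dim genes, a replicate block, array weights, a trended prior, all probe sets and each array left out. The setting without both Erbb2 1 and Hras 1 was chosen after seeing the data. The replicate numbers did not pair the samples, since deviations of same-numbered arrays correlated from -0.34 to 0.44. Promoter windows come from RefSeq (GRCm38.p6). Figures were drawn with matplotlib 3.10.9.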

Additional observations from a re-analysis of the deposited data

Results flagged for a closer look

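For 2 members the lines of the oncogenes lay on opposite sides of the NSC mean, with every Hras line below it and every Erbb2 line above it. Slc1a2 differed by -0.91 from NSC in Hras lines and by 0.19 in Erbb2 lines. The difference between the lines was -1.11 (SE 0.42, limma adjusted p = 0.391), which did not pass the test. Atp1b2 differed by -1.16 and 0.52, and the difference between the lines was -1.68 (SE 0.72, limma adjusted p = 0.391). For both genes NSC 2 was the highest array.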

How the results depend on the processing

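Of 40 named differences taken through 17 alternatives each, 678 of 680 values kept their direction and 655 also their side of the threshold, while 18 lost and 5 gained the call. The reversed values were those of Fgfbp3 between Hras and Erbb2 lines, -0.08 after quantile normalization and -0.01 with centred arrays. The count of called members for the tumour mean against NSC, 2 as reported, was 0 after quantile normalization, 0 among all probe sets, 0 without both Erbb2 1 and Hras 1, 4 with the replicate block and 0 to 2 with an array left out, where it was 2 without Erbb2 2 or 3, 1 without Erbb2 1 or NSC 3, and 0 otherwise. The number of all genes called went from 73 to 12 after quantile normalization, 23 with centred arrays, 92 with the replicate block, 52 with a trended prior, 19 among all probe sets, 2 without both Erbb2 1 and Hras 1, and 0 to 70 with an array left out. With the replicate block Aldh1l1 (limma adjusted p = 0.0305) and Mlc1 (limma adjusted p = 0.042) were also called. Same-numbered samples share the replicate number and, among tumour lines only, the first digit of the descriptions, which no tumour line shares with NSC. Not every sample correlated best with its own number. For Hras lines against NSC the count was 1 with array weights, 1 without both Erbb2 1 and Hras 1, and 0 to 1 with an array left out, the gene being Car2 in each. The median member difference moved to -1.31 (Hras lines against NSC) and -0.50 (Hras against Erbb2 lines) with centred arrays, where the medians of all genes moved from 0.16 to -0.23 and from 0.29 to -0.13, and to -0.76 (tumour mean against NSC) with array weights. With an array left out it was -1.11 to -0.49 for Hras lines against NSC, -0.52 to -0.19 for Erbb2 lines against NSC, -0.34 to 0.13 for Hras against Erbb2 lines and -0.77 to -0.12 for the tumour mean. Members above the NSC range numbered 7 in Erbb2 2 and 2 in Hras 2 after quantile normalization, and 7 in Erbb2 2, 4 in Hras 1, 0 in Hras 2 and 3 in Hras 3 with centred arrays. With an NSC array left out they numbered 4 to 9, 3 to 8 and 6 to 11 in Erbb2 lines 1, 2 and 3 and 7 to 12, 9 to 13 and 6 to 9 in Hras lines 1, 2 and 3. The counts below the NSC range stayed within 1.5 times the reported ones, at 14 to 26. The cause of these moves was not tested, except that leaving out arrays removes samples and the value table adds features to the adjustment. Levels below 5.31 limit what can be read for 10 members on at least 1 array.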
